A study of Mus musculus with 9 samples.

Results

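The genes described here encode the nuclear subunits of the mitochondrial respiratory chain and of ATP synthase. They were taken by the gene name in the array files, as probes for transcripts whose name starts with Nduf, Uqcr, Cox4, Cox5, Cox6, Cox7, Cox8 or Atp5, or is Sdha, Sdhb, Sdhc or Sdhd. The rule used names and no measured value. It gave 117 probes of 83 genes, of which 79 could be tested among 14262 genes in all. By the complex they belong to, 37 belong to complex I (2 of them assembly factors and not subunits), 4 to complex II, 7 to complex III, 18 to complex IV and 15 to complex V. The other 2 carry a matching name without being a subunit: Cox4nb, now Emc8, belongs to a complex of the endoplasmic reticulum membrane, and Atp5s is now named Dmac2l. Ndufa4 was counted with complex IV, where its protein is found. Older names in the files are Ndufa12l for Ndufaf2, Atp5f1 for Atp5pb and Uqcr for Uqcr11.

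The respiratory chain passes electrons from NADH (complex I) and succinate (complex II) through complex III and cytochrome c to oxygen at complex IV. Complexes I, III and IV pump protons across the inner mitochondrial membrane, and ATP synthase (complex V) lets them flow back through its ring of c subunits to drive the making of ATP in its F1 head. Mature red cells have lost their mitochondria, while reticulocytes, platelets, leukocytes and tumour cells keep them in differing amounts, so a blood sample and a tumour sample hold very different mixtures of cells with a respiratory chain.

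The samples came from 3 athymic Balb/c females (mice 832, 833 and 834), which lack a thymus and hence most T cells. Each mouse was bled before (day 0 blood) and 10 days after (day 10 blood) Hepa1-6 cells, a mouse hepatoma line, were placed under the skin, and its tumour was ground on day 10 to enrich the infiltrating inflammatory cells (day 10 TIC). All 3 groups therefore have 1 array from each mouse, every value is a log2 ratio to the same reference, RNA from the blood of a C57Bl/6 female left untreated, and the dyes were never swapped. Blood and tumour RNA were extracted with different kits, so the kit and the tissue cannot be told apart. The day 0 samples are the mice's own blood before inoculation, and no sample of mice without a tumour on day 10 was analysed here.

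Sample RNA was well above background on 24.3% to 36.9% of spots in day 0 blood, 14.2% to 21% in day 10 blood and 48.2% to 55.1% in the TIC fraction, against 40.2% to 50.4% for the reference on the 9 arrays. Among the TIC arrays, mouse 833 stood apart, with a correlation across all genes of 0.88 and 0.90 to the other mice, which reached 0.99 with each other. The TIC fraction was checked against marker genes of the cells it could hold. Against day 10 blood, 34.4% of all genes tested were called higher and 33.2% lower. In that comparison 6 of 7 tested hepatoma markers were higher, among them Afp and Alb, and 1 was lower (Ahsg). Their mean log2 ratio per array was 2.11 to 2.39 in the TIC fraction and -0.13 to 0.15 in blood. Alb, Apoa1, Apoa2 and Igfbp1 were not well above background on any blood array. They passed the filter only through the TIC arrays, which favoured a rise and raised that mean, while Afp and Fgb passed on blood arrays as well. Markers of red cell precursors were lower for 8 of 8 genes, with means between -6.64 and -5.64 in the TIC fraction, against -0.21 to 0.37 for day 10 and -1.80 to -0.96 for day 0 blood. Platelet markers were lower for 5 of 5, B cell markers for 5 of 5, T cell markers for 4 of 4 and neutrophil markers for 3 of 6, and with median centring all the red cell and platelet genes stayed below 0 while 1 B cell, 3 T cell and 4 neutrophil genes stood above it. Of the fibroblast markers 1 of 4 was higher and 3 were lower, which turned with median centring, and single tested genes of muscle (Acta1, lower) and fat (Fabp4, not called) gave little on those tissues. The fibroblast marker that was higher, Dcn, passed the filter only through the TIC arrays, as did Col1a1 and Col3a1, which were called lower. Col3a1 was not well above background on any blood array, and Acta1 was not on any day 10 blood array. Their day 10 blood values are upper limits, so neither call can be read as a fall. Col1a1 was well above background on only 1 day 10 blood array. The pan-leukocyte gene Ptprc differed by -3.37, and by 1.29 with median centring, where all genes had a median of 1.38. Of the macrophage markers 3 of 7 were higher. Those 3 (C1qa, C1qc and Mrc1) were not well above background on any blood array, so they passed the filter only through the TIC arrays, which favoured a rise. Hepatoma transcripts were thus measured in the fraction labelled as infiltrating cells, and the part of each cell type in the differences below was not tested. In such mixtures, fewer cells of a type and less RNA per cell cannot be told apart.

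Most of these genes had a higher normalized log2 ratio in the TIC fraction than in the blood of the same day. The loess normalization sets each ratio against those of spots of similar intensity, and not against all RNA. The p-values measure the spread between these arrays of 3 mice. A gene was called where the limma test gave an adjusted p under 0.05 (Benjamini-Hochberg over all 14262 genes). Against day 10 blood, 52 of the 79 genes rose, 65.8% of them, where 34.4% of all genes tested were called higher. Another 8 fell, 10.1%, where 33.2% of all genes were called lower, and 7 of these 8 turned higher in at least 1 other scaling. The median log2 difference was 1.06 over the 79 genes and 0.07 over all genes. For 55 of the 79 all 3 TIC arrays lay above all 3 day 10 blood arrays and for 8 below, against 36.8% and 35% of all genes.

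**Figure D1:**
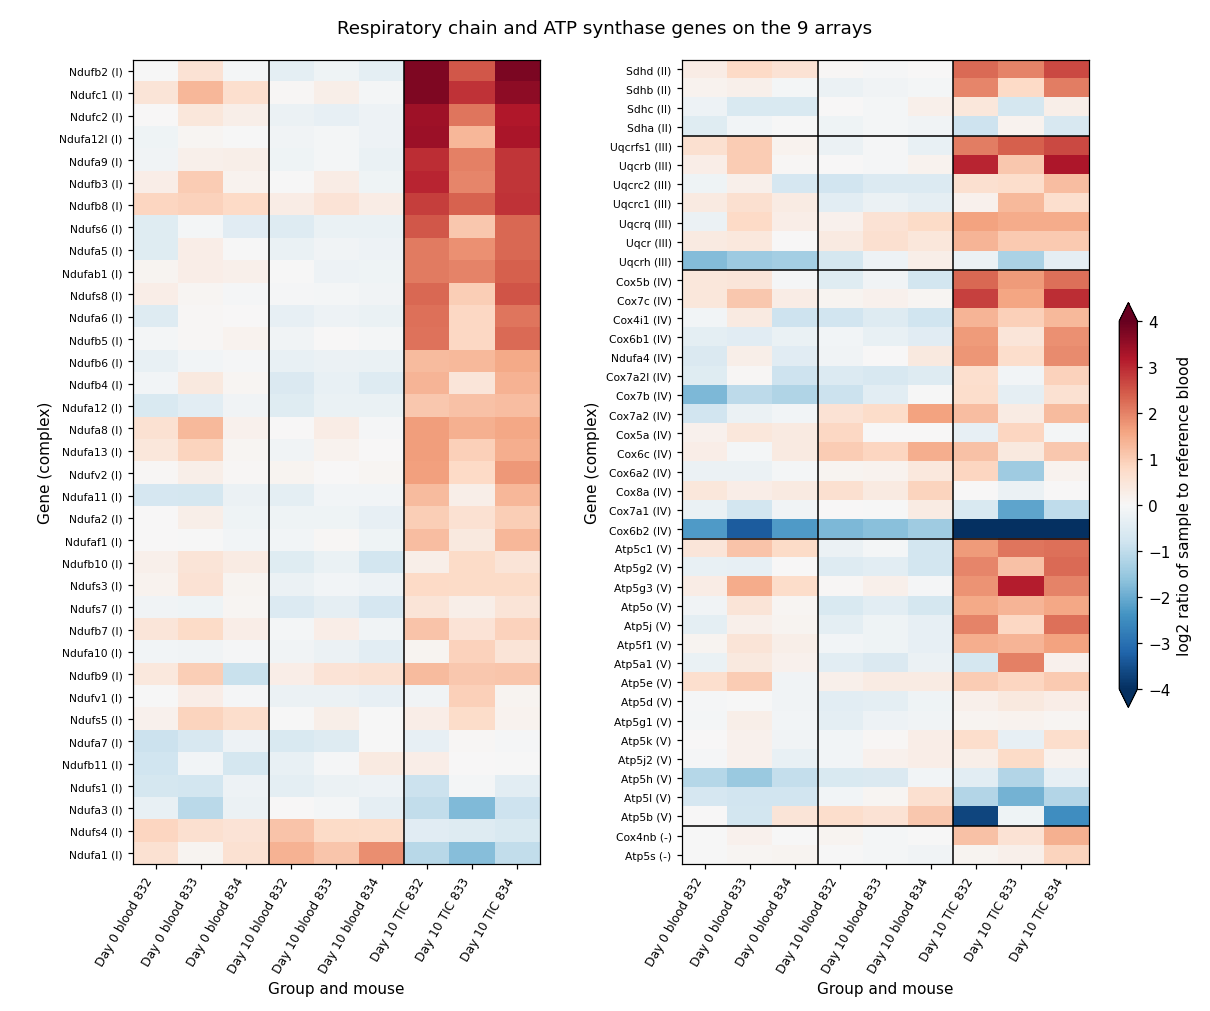
Each row is 1 of 78 tested genes with its complex in brackets and each column an array, grouped as day 0 blood, day 10 blood and day 10 TIC, with the mouse number. Colour is the log2 ratio of sample to reference blood and is capped at 4 in either direction. Most rows are red in the TIC columns and pale in the blood columns, and Cox6b2 is blue in all 9, deepest in the TIC fraction at -6.30 to -6.56.

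A member could pass the filter on dim probes through its TIC arrays alone, which favoured a rise over blood without forcing it. Passing in this way held for 6 genes, among them Ndufaf1, Atp5s, Ndufb5, Cox4nb and Ndufa12l. Of these, Atp5s was not called. Among the 73 that would have passed on blood arrays, 47 rose and 8 fell, and the share over all genes passing that way was not computed. Among the 60 well above background on all 9 arrays, 36 rose and 8 fell. With only such genes in the fit, 3911 in all, these counts were the same. Of the 3911 genes 17.7% were then called higher and 58.1% lower. On day 10 blood arrays, 11 of the 79 were never well above background, among them Atp5s, Cox4nb, Ndufa10, Ndufa12l, Ndufaf1, Ndufb5, Ndufs8, Ndufv2, Sdha and Sdhb. Their blood values are upper limits, and no fold over day 10 blood is given for them.

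The rises kept their direction in all 3 scalings tried and most falls did not. With each array only centred on its median, with the log ratios as deposited, and with the Cy5 channel alone, all 52 rises kept their sign and 49 passed the test in each of the 3. Of the 8 falls, 1 kept its sign in all 3 scalings (Cox6b2) and none passed the test in all 3. Each scaling also moved the median of all genes up, from 0.07 to 1.38, 0.85 and 0.14 in that order. A positive sign was thus easier to keep than a negative one, which limits what these counts show. With the deposited log ratios, 46.1% of all genes were called higher and 26.8% lower. The respiratory genes were bright, with a median mean log2 intensity of 9.09 against 6.71 for all genes, and 69 of the 79, 87.3%, were among the brightest 25% of genes. The loess normalization fits its curve along intensity, while median centring does not. Median centring moved the median difference of all genes to 1.38 and that of the respiratory genes to 5.54, with 78 called higher and none lower, where 72% of all genes were called higher and 3.25% lower. TIC and day 10 blood shared no slide, and with the slide as a block 20 rose and 4 fell, where 1498 and 2778 of all genes did.

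**Figure D2:**
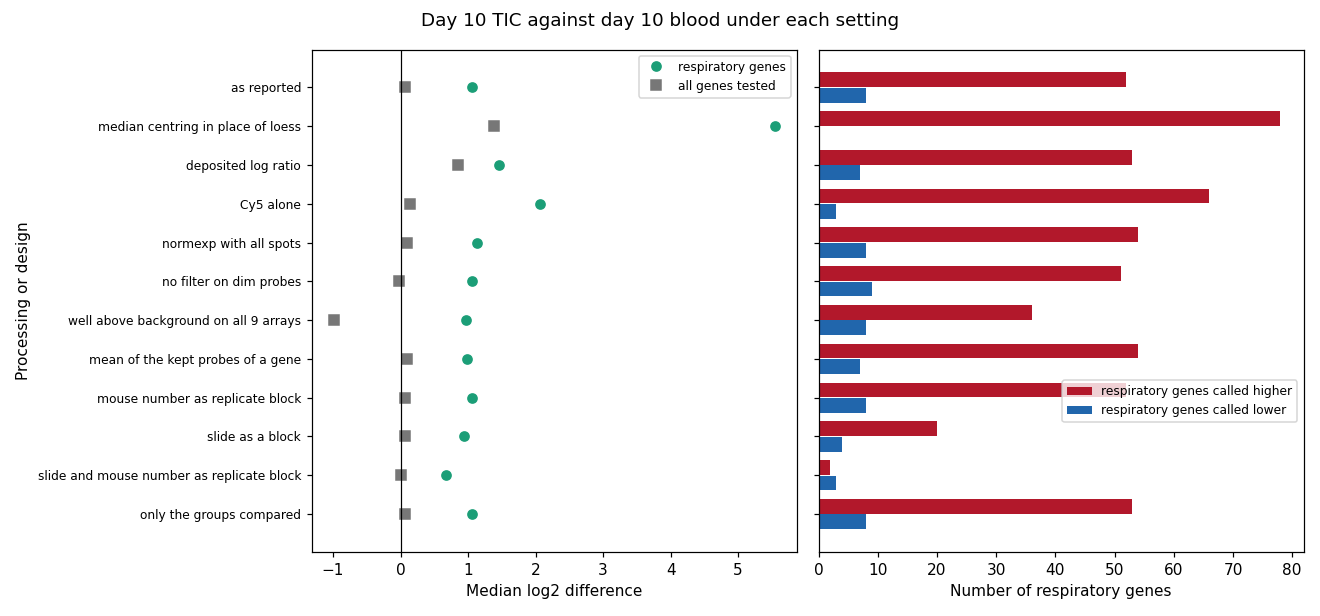
The left panel gives the median log2 difference between day 10 TIC and day 10 blood for the respiratory genes (circles) and all genes tested (squares), one row per processing or design. The right panel gives how many respiratory genes were called higher and lower. The circles lie to the right of the squares in every row, and the number called higher runs from 2 with slide and mouse as blocks to 78 with median centring.

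Many of these genes are known targets of the transcription factors NRF-1, NRF-2 (GABP, an ETS factor) and YY1, and their promoters were searched for the core letters of each on both strands. RefSeq promoters (GRCm38.p6, 300 bases each, most of it before the gene's start) were on hand for 68 of the 83 genes, 73 promoters in all. The NRF-1 letters GCGCATGC stood in 13.7% of them, against 2.71% of all 32851 promoters in the table. The ETS letters CCGGAAG stood in 23.3% against 8.86%, and the YY1 letters AAGATGG in 15.1% against 6.34%. The NRF-1 letters overlap their own reverse complement, so a longer palindrome counts as a match on both strands, and no ETS match shared bases with a YY1 match. At least 1 of the 3 stood in 43.8% of the 73 promoters, against 16.6% of all 32851. Of the 45 genes that rose against day 10 blood and have a promoter in the table, 23 held at least 1. The same held for 4 of the 8 that fell and 5 of the 15 others, which were not called or not tested. A match is only a match of letters.

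The promoters printed here, 5′ to 3′ with the matched letters in capitals, are for each complex that of the riser with the largest difference among those whose promoter held a match, then the largest rise (Ndufb2) and the largest fall (Cox6b2), whose promoters held none. Ndufc1 (chr3:51408906-51409205, minus strand) has a YY1 match 22 bases after the start. Sdhd (chr9:50603800-50604099, minus) has an ETS match 46 bases before it. Uqcrc1 (chr9:108936398-108936697, plus) has an NRF-1 match on each strand, from base 30 after the start. Cox7c (chr13:86046746-86047045, minus) has a YY1 match across the start. Atp5g2 (chr15:102670998-102671297, minus) has an NRF-1 match on each strand, from base 42 before the start. Ndufb2 lies at chr6:39592315-39592614 (plus) and Cox6b2 at chr7:4753045-4753344 (minus).
Ndufc1: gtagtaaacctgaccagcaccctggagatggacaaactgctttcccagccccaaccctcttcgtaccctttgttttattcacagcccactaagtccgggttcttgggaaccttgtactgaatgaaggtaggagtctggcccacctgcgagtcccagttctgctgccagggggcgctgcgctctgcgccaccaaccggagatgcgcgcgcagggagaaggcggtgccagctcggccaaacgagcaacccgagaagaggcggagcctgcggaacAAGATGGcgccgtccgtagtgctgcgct
Sdhd: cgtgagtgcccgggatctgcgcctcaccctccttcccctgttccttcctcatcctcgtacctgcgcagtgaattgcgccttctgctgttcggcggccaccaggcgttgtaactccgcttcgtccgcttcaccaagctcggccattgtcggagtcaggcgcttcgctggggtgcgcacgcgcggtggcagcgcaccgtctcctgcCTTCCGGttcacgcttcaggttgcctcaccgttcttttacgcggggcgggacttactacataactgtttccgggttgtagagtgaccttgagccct
Uqcrc1: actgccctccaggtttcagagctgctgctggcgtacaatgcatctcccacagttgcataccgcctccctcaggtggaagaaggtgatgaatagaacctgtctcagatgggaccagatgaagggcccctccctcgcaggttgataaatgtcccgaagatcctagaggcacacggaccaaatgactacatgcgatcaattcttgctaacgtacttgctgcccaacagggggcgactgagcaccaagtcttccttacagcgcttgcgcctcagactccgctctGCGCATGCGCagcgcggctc
Cox7c: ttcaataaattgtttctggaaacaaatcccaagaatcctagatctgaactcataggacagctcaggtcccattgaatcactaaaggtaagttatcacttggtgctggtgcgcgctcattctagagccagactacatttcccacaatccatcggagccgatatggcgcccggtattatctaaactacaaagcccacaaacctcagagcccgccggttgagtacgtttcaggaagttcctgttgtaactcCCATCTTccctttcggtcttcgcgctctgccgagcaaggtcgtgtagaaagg
Atp5g2: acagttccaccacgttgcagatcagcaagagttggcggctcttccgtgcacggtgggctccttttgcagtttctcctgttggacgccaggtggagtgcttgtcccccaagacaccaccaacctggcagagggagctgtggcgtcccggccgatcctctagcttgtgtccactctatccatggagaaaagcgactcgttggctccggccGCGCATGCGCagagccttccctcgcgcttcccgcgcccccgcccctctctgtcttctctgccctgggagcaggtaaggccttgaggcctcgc
Ndufb2: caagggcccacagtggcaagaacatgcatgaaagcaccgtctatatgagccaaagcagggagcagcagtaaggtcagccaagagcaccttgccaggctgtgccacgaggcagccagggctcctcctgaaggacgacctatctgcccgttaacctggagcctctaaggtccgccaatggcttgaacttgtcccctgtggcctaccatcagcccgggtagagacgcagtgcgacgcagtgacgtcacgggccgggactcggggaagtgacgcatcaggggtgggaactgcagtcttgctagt
Cox6b2: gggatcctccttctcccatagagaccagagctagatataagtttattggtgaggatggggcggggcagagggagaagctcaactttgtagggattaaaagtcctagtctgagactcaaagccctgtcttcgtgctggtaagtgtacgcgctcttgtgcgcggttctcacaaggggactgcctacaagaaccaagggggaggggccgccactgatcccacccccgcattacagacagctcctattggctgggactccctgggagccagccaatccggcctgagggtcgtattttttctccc

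Complex I held the largest rises. Of its 35 subunits 26 rose against day 10 blood and 3 fell, with a median difference of 1.36. Among the 7 core subunits, which bind the flavin and the iron-sulphur clusters that carry the electrons, 5 rose and none fell, with a median of 0.95. Among the 28 accessory subunits, which surround and stabilise that core, 21 rose and 3 fell, with a median of 1.49. The core subunits encoded by mitochondrial DNA had no probe by their gene names on the array.

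Ndufs8, which holds a pair of iron-sulphur clusters, read 2.29, 0.98 and 2.52 in the TIC fraction and was called higher than day 10 blood (adjusted p = 0.000929). Ndufv2, of the NADH-binding arm, read 1.65, 0.81 and 1.73 and was also called higher (adjusted p = 0.000816). Neither was well above background in day 10 blood, and for both the array of mouse 833 was the lowest of the 3 TIC arrays.

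Ndufs3 and Ndufs7, which join the iron-sulphur chain to the membrane arm, were above background in blood. Ndufs3 read 0.81, 0.78 and 0.75 in the TIC fraction, -0.22, -0.10 and -0.19 in day 10 blood and 0.13, 0.57 and 0.12 in day 0 blood. The groups did not overlap, and the difference of the TIC fraction from day 10 blood was 0.95 ± 0.13 (SE, adjusted p = 0.000295). Ndufs7 had the same difference, 0.95 ± 0.13 (adjusted p = 0.000264). Of the core subunits not called, Ndufv1, which binds NADH, differed by 0.57 ± 0.25 (adjusted p = 0.0747) and Ndufs1 by -0.19 ± 0.22 (adjusted p = 0.461). For Ndufv1 the TIC arrays read -0.14, 0.96 and 0.10, and mouse 833 was here the highest.

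Ndufb2, an accessory subunit of the membrane arm, had the largest rise of all 79 genes. Its probe lies at chr6:39527917-39529002 (build mm8, as all probe positions here, which can span an intron). It read 3.74, 2.47 and 3.76 in the TIC fraction, -0.40, -0.16 and -0.40 in day 10 blood and -0.01, 0.59 and -0.07 in day 0 blood. Every TIC array lay far above the blood arrays, and the difference from day 10 blood was 3.65 ± 0.34 (adjusted p = 2.57e-05). Ndufc1, another small membrane-arm subunit (probe at chr3:51493415-51493474), read 3.74, 2.90 and 3.59 against 0.05, 0.24 and -0.07, a difference of 3.34 ± 0.27 (adjusted p = 1.06e-05). A further probe of Ndufc1 differed by 3.02. Another, dim and well above background on only 3 arrays, differed by only 0.35, the widest gap between probes of any of these genes. Ndufc2, Ndufa9 and Ndufb3 differed by 3.18, 2.78 and 2.60, and they were chosen after their values were seen.

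The 3 complex I genes that fell were Ndufa1, Ndufs4 and Ndufa3. Ndufa1, an X-linked accessory subunit needed to assemble the complex (probe at chrX:33619077-33619136), read -1.10, -1.71 and -0.98 in the TIC fraction, 1.39, 1.11 and 1.86 in day 10 blood and 0.61, 0.12 and 0.61 in day 0 blood. It fell by 2.72 ± 0.25 (adjusted p = 2.63e-05), but stood 3.33 higher with median centring. Ndufs4, which completes the NADH-binding arm, read -0.45, -0.53 and -0.60 against 1.13, 0.75 and 0.73. It fell by 1.40 ± 0.14 (adjusted p = 3.64e-05), with 2.92 higher under median centring and 1.15 higher in Cy5 alone. For Ndufa3 (a fall of 1.05, adjusted p = 0.0115; 4.09 higher with median centring and 0.38 in Cy5 alone) a second probe was called higher at 0.40. That probe was dim, with a mean log2 intensity of 6.07 against 10.26 for the one used, and well above background on only 3 arrays. The direction of these genes thus depends on the scaling. The assembly factors Ndufaf1 and Ndufa12l both rose (adjusted p = 0.000837 for Ndufa12l), though neither was well above background in day 10 blood.

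**Figure D3:**
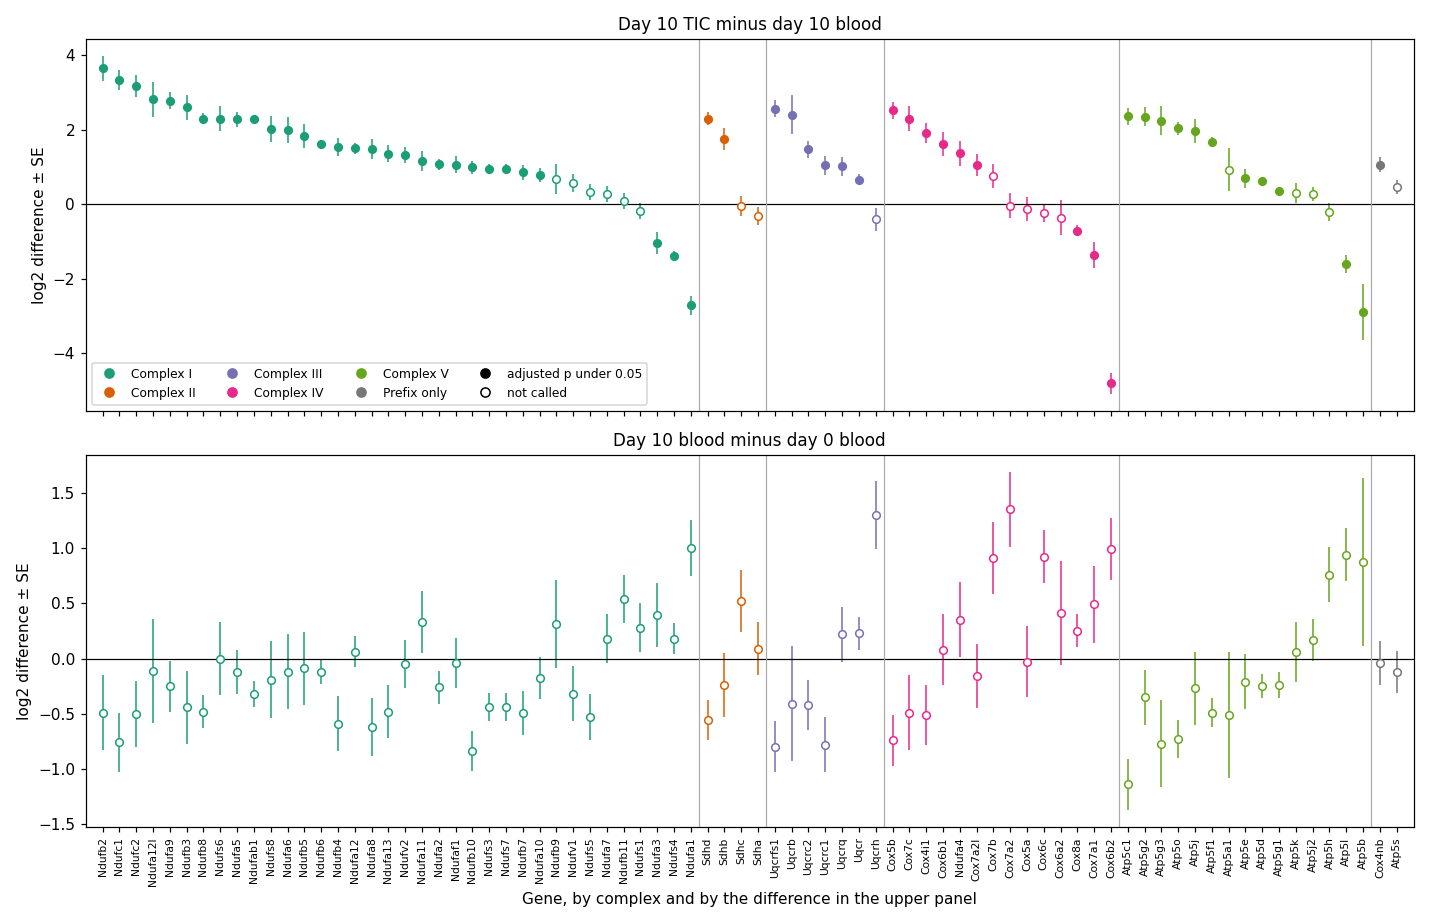
Points are log2 differences with the SE of the limma fit (3 arrays a group), genes on the horizontal axis by complex. The upper panel compares day 10 TIC with day 10 blood and the lower panel day 10 blood with day 0 blood, and filled points have an adjusted p under 0.05. For 78 of the 79 genes, most filled points of the upper panel lie above 0 and 8 lie below, of which 7 changed sign in another scaling, and the lower panel has no filled point. Both panels use the day 10 blood arrays, with opposite sign, so their mirrored order is not an independent observation. Points of genes not well above background in day 10 blood rest on upper limits there.

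Complex II, which is also succinate dehydrogenase of the tricarboxylic acid cycle, had 2 genes that rose, Sdhb and Sdhd, and 2 that were not called, Sdha and Sdhc. Sdhd, a membrane anchor (probe at chr9:50348755-50348814), read 2.27, 1.99 and 2.63 in the TIC fraction, 0.04, -0.05 and 0.02 in day 10 blood and 0.31, 0.80 and 0.57 in day 0 blood. The TIC arrays did not overlap with blood, and the difference from day 10 blood was 2.30 ± 0.18 (adjusted p = 9.78e-06). Sdhb, which carries the iron-sulphur clusters, read 1.95, 0.80 and 2.06 in the TIC fraction, and was called higher (adjusted p = 0.000834) than in day 10 blood, where it was not well above background. Sdhc, the other membrane anchor, read 0.45, -0.70 and 0.24 in the TIC fraction, on both sides of its day 10 blood values of 0.03, -0.08 and 0.21. Sdha, the flavoprotein with the succinate site, read -0.84, 0.13 and -0.64 and was not well above background in day 10 blood. Without the TIC array of mouse 833 in the fit, Sdha was called lower (limma adjusted p = 0.00374). As its day 10 blood values are upper limits, that call cannot be read as a fall. With median centring Sdha and Sdhc were both called higher, Sdha near the all-gene median of 1.38 in that scaling and Sdhc at 3.67.

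In complex III 6 of 7 genes rose against day 10 blood and none fell, with a median of 1.04. Uqcrfs1, the Rieske iron-sulphur protein that hands electrons to cytochrome c1 (probe at chr13:30547959-30548018), read 2.04, 2.40 and 2.65 in the TIC fraction, -0.24, -0.06 and -0.29 in day 10 blood and 0.65, 1.02 and 0.14 in day 0 blood. Its difference from day 10 blood was 2.56 ± 0.23 (adjusted p = 2.28e-05). Uqcrb, a small subunit near the ubiquinone site, read 3.04, 1.09 and 3.22 against 0.01, -0.06 and 0.15, a difference of 2.41 ± 0.52 (adjusted p = 0.00324). Mouse 833 read far below the other TIC arrays for Uqcrb and above the array of mouse 832 for Uqcrfs1. The core proteins Uqcrc1 and Uqcrc2 differed by 1.04 and 1.48. Uqcrh, the hinge protein that docks cytochrome c1, was the gene not called, at -0.41 ± 0.31 (adjusted p = 0.267).

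Complex IV, cytochrome c oxidase, gave the lowest median of the complexes, 0.36, with 6 of its 14 tested genes higher and 3 lower. The difference between complexes was not tested, and with median centring the medians lay between 4.21 for complex II and 5.75 for complex V. Cox5b, a zinc-binding subunit on the matrix side (probe at chr1:36637808-36637867), read 2.29, 1.71 and 2.21 in the TIC fraction against -0.49, -0.13 and -0.74 in day 10 blood. The groups did not overlap, and the difference was 2.52 ± 0.23 (adjusted p = 2.05e-05). Cox7c, a single-span membrane subunit, read 2.72, 1.59 and 2.94 against 0.11, 0.16 and 0.07, a difference of 2.30 ± 0.34 (adjusted p = 0.0004).

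Several complex IV subunits exist as a common form and a form restricted to muscle, testis, lung or hypoxia, and both kinds were followed. Of the 6 common forms tested 3 rose (Cox4i1, Cox6b1 and Ndufa4) and 1 fell (Cox8a). Of the 3 restricted forms tested none rose and 2 fell (Cox6b2 and Cox7a1), though Cox8a and Cox7a1 turned with median centring. Cox6b1, the common form, read 1.70, 0.47 and 1.83 in the TIC fraction against -0.12, -0.31 and -0.44 in day 10 blood, a difference of 1.62 ± 0.32 (adjusted p = 0.00196). Its testis form Cox6b2 (probe at chr7:4354973-4355032) read -6.56, -6.30 and -6.51 against -1.81, -1.67 and -1.42 in day 10 blood and -2.26, -3.34 and -2.27 in day 0 blood. Cox6b2 was below the reference on all 9 arrays, and it fell by 4.82 ± 0.28 (adjusted p = 2.4e-06), a difference of -0.01 with median centring. That is below the all-gene median of 1.38 in that scaling. The common forms Cox4i1 and Ndufa4 rose by 1.91 and 1.37.

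The muscle form Cox7a1 read -0.61, -2.12 and -1.02 in the TIC fraction against 0.00, -0.01 and 0.33 in day 10 blood. It fell by 1.36 ± 0.35 (adjusted p = 0.00822), and stood 1.95 higher with median centring. Its common counterpart Cox7a2 differed by -0.04 ± 0.34 (adjusted p = 0.932) from day 10 blood and by 1.31 (adjusted p = 0.00953) from day 0 blood. Cox6a2, the other muscle form tested, read 0.86, -1.41 and 0.15 in the TIC fraction and differed by -0.36 (adjusted p = 0.519). Cox8a, the common form of its subunit, fell by 0.71 ± 0.15 (adjusted p = 0.00258), but was 5.51 higher with median centring and 1.03 higher in Cy5 alone. Cox7b, at 0.76 (adjusted p = 0.0717), was not called. Neither the heart and muscle form Cox8b nor the testis form Cox8c rose above background on any array, in either channel, and Cox6a1 lacked a usable spot on at least 1 array. Sample RNA for Cox4i2, the lung and hypoxia form, was above background only on 1 day 0 blood array, while the reference was above it on all 9. Cox7b2 and Ndufa4l2 had no probe by the naming rule.

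**Figure D4:**
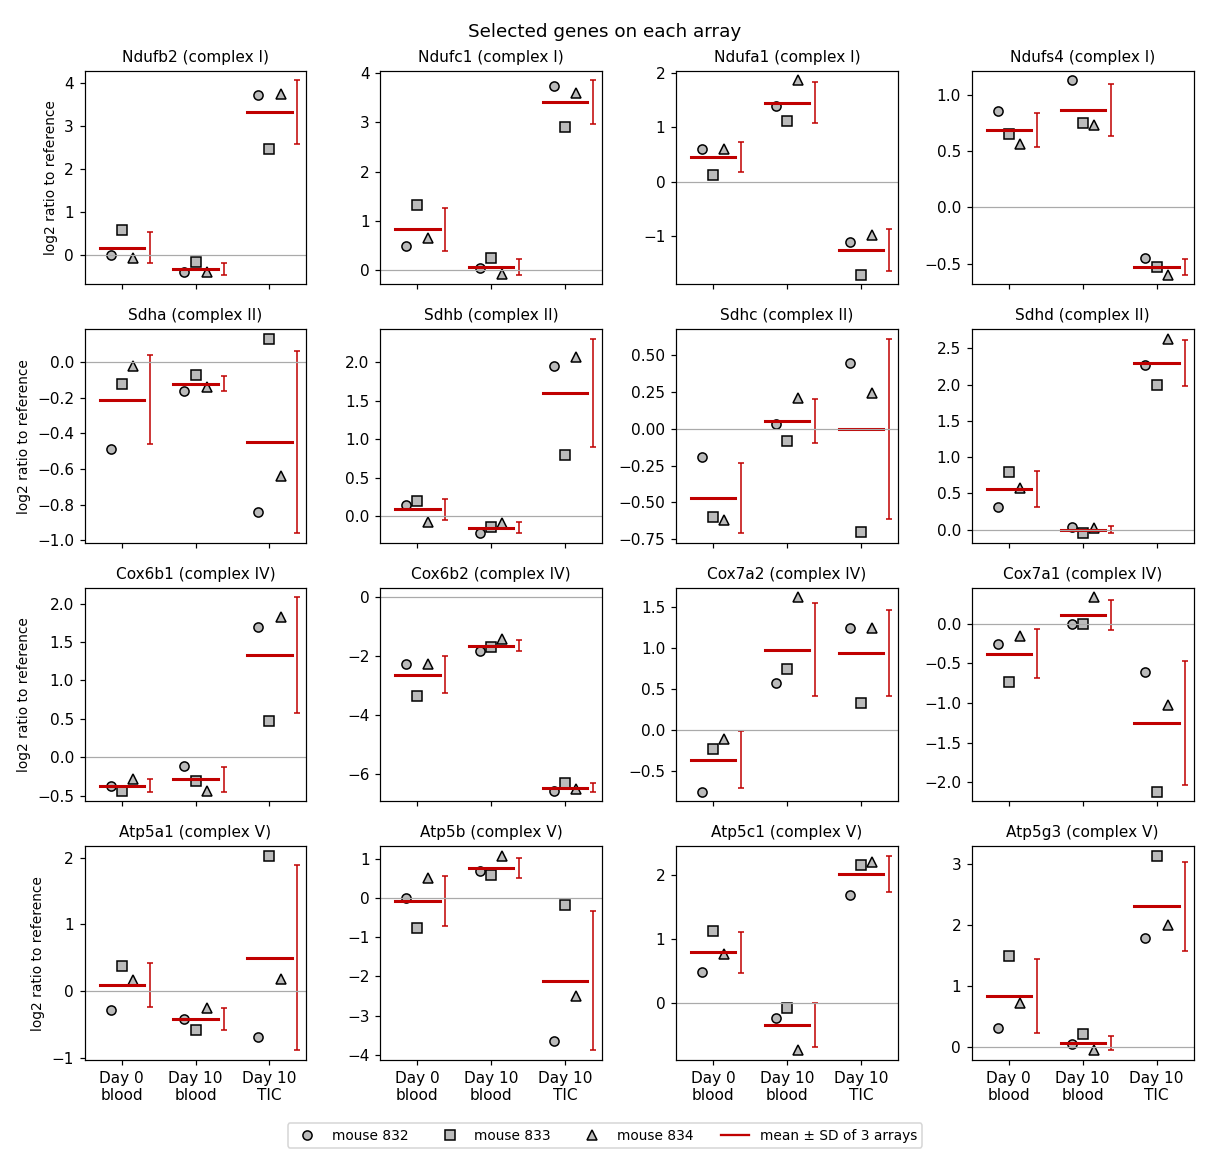
Each panel is a gene, each symbol an array (circle, mouse 832; square, 833; triangle, 834), the red line the mean of 3 arrays and the bar its SD. The vertical axis, with its own range in each panel, is the log2 ratio to reference blood. The TIC arrays of Ndufb2 and Sdhd lie above all blood arrays, those of Cox6b2 and Ndufa1 below (Ndufa1 above with median centring), and for Atp5a1 and Atp5b mouse 833 lies apart from the other TIC arrays.

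In complex V 9 of 15 genes rose and 2 fell against day 10 blood, with a median of 0.69. In the F1 head, which makes the ATP, the central shaft subunit Atp5c1 (probe at chr2:9973944-9974003) read 1.69, 2.15 and 2.20 in the TIC fraction, -0.23, -0.07 and -0.73 in day 10 blood and 0.49, 1.13 and 0.76 in day 0 blood. The 3 groups did not overlap, and the TIC fraction stood 2.36 ± 0.23 above day 10 blood (adjusted p = 3.38e-05). The delta and epsilon subunits Atp5d and Atp5e rose by 0.62 and 0.69.

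The catalytic beta subunit Atp5b and its alpha partner Atp5a1 split the TIC arrays. Atp5b (probe at chr10:127493148-127493207) read -3.66, -0.16 and -2.50 in the TIC fraction, 0.70, 0.59 and 1.09 in day 10 blood and 0.00, -0.75 and 0.53 in day 0 blood. It fell by 2.90 ± 0.76 (adjusted p = 0.00901), and stood 3.57 higher with median centring. Its other 2 probes also gave negative differences, -1.49 and -1.30. Without the TIC array of mouse 833 the difference was -3.87. Atp5a1 read -0.69, 2.03 and 0.18 in the TIC fraction against -0.42, -0.59 and -0.25, and the difference of 0.93 ± 0.57 was not called (adjusted p = 0.181). A second Atp5a1 probe gave -0.84 and was not called either. The mouse 833 array was the highest of the 3 for both.

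The 3 genes for the c ring, which encode the same mature protein with different import signals, all rose. Atp5g2 differed from day 10 blood by 2.35 ± 0.25 (adjusted p = 6.15e-05), with TIC values of 1.94, 1.18 and 2.25. Atp5g3 differed by 2.24 ± 0.39 (adjusted p = 0.000974), with TIC values of 1.79, 3.13 and 1.99. Atp5g1 differed by 0.35 ± 0.12 (adjusted p = 0.0337). Of the other subunits, the stalk genes Atp5o, Atp5j and Atp5f1 rose by 2.04, 1.97 and 1.68. Atp5l, subunit g of the membrane part, fell by 1.61 ± 0.24 (adjusted p = 0.00041), but was 4.37 higher with median centring.

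Against day 0 blood, from the same TIC arrays, 52 of the 79 genes were higher (31.7% of all genes were called higher) and 6 lower (33.6%), of which all but Cox6b2 turned higher in at least 1 other scaling. The median difference was 0.98, against 0.01 over all genes. By complex, 25 of 35 rose in complex I with 2 lower, 2 of 4 in complex II, 6 of 7 in complex III, 9 of 14 with 2 lower in complex IV and 7 of 15 with 2 lower in complex V. Ndufb2 differed by 3.16 from day 0 blood and by 3.65 from day 10 blood, Sdhd by 1.73 and 2.30, Uqcrb by 2.01 and 2.41, and Cox7c by 1.80 and 2.30. In complex V Atp5g2 rose against both bloods (adjusted p = 0.000195 for day 0), and the stalk gene Atp5j differed by 1.70 and 1.97. Cox6b2 differed by -3.83 and -4.82. For Ndufa12l the TIC values of 3.42, 1.33 and 3.27 gave a difference of 2.71 from day 0 blood. Uqcrh and Cox7b were called higher against day 0 blood only, at 0.89 (adjusted p = 0.0336) and 1.66 (adjusted p = 0.00244). Slide 2 held 2 TIC and 2 day 0 arrays, and within it 16 genes rose and 3 fell, against 7.19% and 17.3% of all genes.

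Between the bloods no gene was called, among the 79 or among all genes (0% higher and 0% lower, smallest adjusted p 0.0516 by limma). At an unadjusted p under 0.05, 9 of the 79 were higher on day 10 and 18 lower, against 8.71% and 6.06% of all genes. The median difference was -0.15 against -0.01, and 51 of the 79 were below 0. With median centring the medians were -0.82 and -0.18, and with slide and mouse as blocks 0.10 and 0.04, so the direction of the members' median depends on the setting. Atp5c1 had the smallest p, at -1.14 ± 0.23 (adjusted p = 0.0846), and its 3 day 10 values lay below the 3 day 0 values. Ndufb10, a complex I accessory subunit, differed by -0.84 ± 0.18 (adjusted p = 0.0932). For Ndufb10 day 0 blood read 0.21, 0.53 and 0.33, and day 10 blood -0.47, -0.26 and -0.73.

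Other genes were higher on day 10 without passing the test. Cox7a2 read -0.76, -0.24 and -0.11 on day 0 and 0.57, 0.74 and 1.62 on day 10, a difference of 1.35 ± 0.34 (adjusted p = 0.141). Uqcrh read -1.75, -1.44 and -1.36 on day 0 and -0.69, -0.20 and 0.24 on day 10, a difference of 1.30 ± 0.31 (adjusted p = 0.128). In complex II the smallest p was that of Sdhd, at -0.56 ± 0.18 (adjusted p = 0.213). All 3 mice moved the same way for Cox7a2, Uqcrh, Sdhd and Atp5c1. The SE rests on the spread of all 3 groups, and without the TIC array of mouse 833 in the fit 6 of the 79 were called higher and 11 lower between the bloods, with 3.74% and 3.67% of all genes. With only the blood arrays in the fit 5 were higher and 4 lower, against 2.64% and 2.61% of all genes. Between the bloods, marker lists had median differences of 1.28 for red cell precursors (8 genes), 0.74 for platelets (5) and -0.81 for B cells (5), with none called. With median centring these medians were 0.27, -0.21 and -1.52, and the part of these cells in the values was not tested.

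For 20 genes several probes were kept, and the brightest was used. Their differences between TIC and day 10 blood spread over a median of 0.81 between probes of a gene. Ndufa3 was the gene whose probes were called in opposite directions, the one called higher being dim. Many respiratory genes have processed pseudogenes, and cross-hybridization was not tested. Mouse 833 had the lowest TIC value for 53 of the 79 genes and the highest for 16. Its value minus the mean of the other TIC arrays was 2.92 for Atp5b and 2.28 for Atp5a1, and -2.04 for Uqcrb and -2.01 for Ndufa12l.

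Genes that feed or build the chain were taken from lists, in which none of the 13 genes of mitochondrial DNA had a probe. Over all genes, 34.4% were called higher in the TIC fraction against day 10 blood and 33.2% lower, with a median of 0.07. Of 33 tested electron carriers and assembly factors, 18 rose in that comparison and 4 fell, with a median of 0.37. On day 10 blood arrays 20 of the 33 were never well above background, so the count and the median rest partly on upper limits. Among the risers Sco1, Cox11, Cox15, Tmem126b, Dhodh and Ttc19 passed the filter only through the TIC arrays, which favoured a rise. Cycs, cytochrome c, differed by 3.16 (adjusted p = 5.8e-05), and Cyc1, cytochrome c1 of complex III, by 2.06 (adjusted p = 3.6e-05). Etfb, of the electron transfer flavoprotein, differed by 2.17. Tmem70, which helps to assemble ATP synthase, was called higher over day 10 blood arrays where it was not well above background (adjusted p = 0.000218). The 4 that fell were Sdhaf2, which inserts the flavin into Sdha, at -4.19 (adjusted p = 2.2e-06), Atpif1, the inhibitor of ATP synthase, at -2.72, Gpd2, the glycerol phosphate dehydrogenase, at -1.96 and Cox17, a copper chaperone of complex IV, at -1.24. With median centring Sdhaf2 stayed lower at -0.93, and Atpif1, Gpd2 and Cox17 turned to 4.21, 0.74 and 4.13. Gpd2 was still below the all-gene median of 1.38 in that scaling. In Cy5 alone Cox17 was at 0.25.

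Of 17 genes of the tricarboxylic acid cycle and pyruvate dehydrogenase, 12 rose and 1 fell, with a median of 0.88. Over all genes 34.4% were called higher and 33.2% lower, with a median of 0.07. On day 10 blood arrays 5 of the 17 were never well above background. Suclg2, Dlat and Pdhx passed the filter only through the TIC arrays, which favoured a rise. Suclg1, of succinyl-CoA synthetase, differed by 1.96 (adjusted p = 1.91e-05). Ogdh, of the oxoglutarate dehydrogenase complex, fell by 2.29 (adjusted p = 8.73e-06). With median centring it was at 0.09, below the all-gene median of 1.38 in that scaling. Of 6 carriers of ATP, phosphate and anions, 3 rose and 1 fell. The phosphate carrier Slc25a3 differed by 1.73, and Vdac3, a pore of the outer membrane, fell by 1.52, but was 3.26 higher with median centring and 1.15 in Cy5 alone.

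Of 16 regulators of mitochondrial biogenesis, 12 rose and 3 fell, where 34.4% and 33.2% of all genes did. The regulators had a median of 0.38, against 0.07 over all genes. On day 10 blood arrays 11 of the 16 were never well above background, so the count and the median rest partly on upper limits. Among the risers Nrf1, Gabpb1, Twnk, Tfb1m, Tfb2m and Pprc1 passed the filter only through the TIC arrays, which favoured a rise. Ssbp1, which coats single-stranded mitochondrial DNA, differed by 2.89 (adjusted p = 0.000557). Nrf1 and Gabpa, the factors whose letters were searched above, were called higher (adjusted p = 0.016 and 0.0428) over day 10 blood arrays where neither was well above background. The 3 that fell were Tfam, which packages and transcribes mitochondrial DNA, at -4.82 (adjusted p = 0.000186), Polrmt, the mitochondrial RNA polymerase, at -1.45 and Yy1 at -0.60. With median centring Tfam, Polrmt and Yy1 turned to 2.36, 1.15 and 1.87, so their sign depends on the scaling. All genes had a median of 1.38 in that scaling, and Polrmt stayed below it. In none of these 4 lists was a gene called between the bloods.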

How the data were processed

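Transcripts were measured on 9 Agilent two-colour arrays, with sample RNA in Cy5 and 1 reference RNA in Cy3. The deposited scanner files give spot intensity in both channels from Agilent's Feature Extraction, version 10.5.1.1 per the file headers and 9.1.3.1 per the submitters' processing notes. The authors' value table holds log10 ratios, used here, changed to log2, as an alternative. Mean signals were corrected with normexp (offset 50) against median local background, after setting aside 0 to 99 spots an array with non-uniform background, and log2 ratios were loess-normalized within arrays with control and outlier spots at weight 0 (limma 3.58.1, R 4.3.3). A probe was kept if its Cy5 signal was well above background on 3 or more of the 9 arrays, and the brightest stood for its gene, which left 14262 genes. Groups were compared with lmFit and eBayes over all 9 arrays (6 residual degrees of freedom), Benjamini-Hochberg adjusted over all genes, at 0.05. The fit was tested on simulated data. The number of arrays limits the precision.

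All groups come from the same mice, so the labels pair the arrays: deviations of the 2 bloods of a mouse correlated at 0.19 to 0.35, and those of blood and TIC at -0.06 to 0.06. Source names call the TIC samples blood, and the tissue label was used. Alternatives changed the normalization, background, filter, probe choice, samples, slide and mouse.

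The 2 called genes of each complex with the largest rise and fall in each comparison are named, or the smallest p where none was called, with complex II, the complex I core, the tissue isoforms and the catalytic and c-ring genes. Any other gene named was chosen after its values were seen. Members and lists were chosen with earlier results of these data known. For 1 complex I gene, counted in the totals, the values are not reported here or drawn in the plots.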

Additional observations from a re-analysis of the deposited data

How the results depend on the processing

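Counts of respiratory genes are given as higher and lower. Against day 10 blood, where the TIC fraction had 52 and 8 as reported, lower calls numbered 0 with median centring, 3 in Cy5 alone and 4 with the slide as a block, where higher calls numbered 20. With slide and mouse number as a replicate block, 2 were higher and 3 lower, against 1.5% and 6.29% of all genes. Leaving out 1 array gave 50 to 55 higher and 8 to 9 lower, against 28.4% to 39.8% and 30% to 37% of all genes. Against day 0 blood (52 and 6), lower calls numbered 0 with median centring (5.74% of all genes) and 1 in Cy5 alone (32.2%). Higher calls numbered 21 with slide and mouse number as a replicate block (10.3%). Within slide 2, 16 and 3 were called (7.19% and 17.3%). Leaving out 1 array gave 46 to 57 higher and 3 to 6 lower, against 25.4% to 37.8% and 31% to 37.9% of all genes. The count of 3 lower came without the day 0 array of mouse 832 or of mouse 834. Between the bloods (0 and 0), 2 were lower with the deposited log ratio (4.32% of all genes). Among probes above background on all 9 arrays 1 was lower (1.18%). With only the groups compared 5 and 4 were called (2.64% and 2.61%), and within slide 3 1 and 3 (1.45% and 2.57%). Leaving out 1 array gave 0 to 6 higher and 0 to 11 lower, both upper ends without the TIC array of mouse 833 (3.74% and 3.67% of all genes). The mouse number as a replicate block gave 52 and 8, 54 and 7, and 0 and 0 in these comparisons, in that order. The shares of all genes were 33.2% and 33%, 30.4% and 33.5%, and 0.203% and 0.021%.

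With median centring the falls against day 10 blood turned to 3.57 for Atp5b, 4.37 for Atp5l, 1.95 for Cox7a1, 5.51 for Cox8a, 3.33 for Ndufa1 and 2.92 for Ndufs4, and those against day 0 blood to 2.98 for Atp5b, 3.98 for Atp5l, 4.49 for Cox8a, 2.94 for Ndufa1 and 2.26 for Ndufs4. In Cy5 alone Cox8a and Ndufs4 stood at 1.03 and 1.15 against day 10 blood, and Atp5l, Cox8a and Ndufs4 at 0.45, 1.13 and 1.36 against day 0 blood. With slide and mouse number as a replicate block Atp5g1 and Ndufa4 turned to -0.04 and -0.14. Of all calls against day 10 blood 50.9% were higher as reported, 95.7% with median centring and 63.2% with the deposited log ratio. Against day 0 blood these shares were 48.5%, 92% and 57.2%. The cause of these changes was not tested. Between 14.2% and 21% of spots were well above background in day 10 blood, which limits what can be measured there.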

Other observations

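Some genes of the same complexes carry other names in the array files and so fall outside the naming rule. They were matched through their current symbols and chosen with the results known. The ATP synthase membrane subunit Atp5md differed between the TIC fraction and day 10 blood by 2.68 ± 0.33 (SE, n = 3 arrays a group, limma adjusted p = 0.000129). Another small ATP synthase subunit, Atp5mpl, differed by -0.22 ± 0.28 (adjusted p = 0.502). The complex I subunit Ndufv3, of the NADH-binding arm, was called higher (adjusted p = 0.003) over day 10 blood arrays where it was not well above background. The same held for the complex I assembly factors Ndufaf3, Ndufaf4, Ndufaf5 and Ndufaf6 and the complex II assembly factors Sdhaf3 and Sdhaf4. Ndufaf7, a methyltransferase that acts in complex I assembly, differed by -0.79 ± 0.13 (adjusted p = 0.000925), and its direction was not checked in the other scalings. Sdhaf1, which serves the iron-sulphur clusters of Sdhb, was not called (adjusted p = 0.0846). Cox7b2 and Uqcr10 had probes that did not pass the filter on dim probes.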
